A study of Mus musculus with 8 samples.

Results

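The potassium channel genes described here are all genes whose symbol in the platform annotation begins with Kcn, the prefix shared by potassium channel pores and most of their named accessory subunits. The rule used names only, and it found 114 of the 25697 probes of the array table, which stand for 80 of the 16110 genes with a symbol. By the class of the protein, 32 of the 80 genes encode voltage-gated pore (alpha) subunits, 12 inward rectifiers, 13 two-pore domain channels, 7 calcium- or sodium-activated channels and 16 beta or other auxiliary subunits.

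RNA came from the ascending aorta of 8 mice of the strain C57BL/6 and was hybridised as biotin-labelled copy RNA to Illumina expression arrays, with 1 array per mouse. The normal group held 3 mice, females of 5.8 and 7 months and a male of 6.4 months. The other 5 mice had the genotype MPS VII (mucopolysaccharidosis VII, a storage disease of the lysosome in which beta-glucuronidase, the product of Gusb, is missing), and the labels name no specific allele. In 3 of them the aorta was dilated (females of 7.8 and 9.1 months and a male of 6.0 months), and in 2 it was not (a female of 5.8 months and a male of 6.7 months). The dilated group was thus on the whole older, and both MPS VII groups were compared with the same 3 normal arrays.

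Potassium channels let potassium leave the cell and so pull the membrane potential towards negative values. In arterial smooth muscle this closes voltage-gated calcium channels and relaxes the vessel wall, so the potassium conductances oppose contraction. Voltage-gated channels open on depolarisation, large-conductance calcium-activated channels open when calcium is released close to the membrane, inward rectifiers and two-pore leak channels set the resting potential, and beta subunits change the gating and the surface level of the pores. Endothelial cells and macrophages carry channels of their own, among them the intermediate-conductance calcium-activated channel and the strong inward rectifier.

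Most Kcn genes were at background in this tissue. The background bound was 25.6 intensity units, set from the spread of values below 0, and a gene was tested when its probe exceeded this bound on at least 2 of the 8 arrays. Of the 114 Kcn probes, 78 (68.4%) were above background on 0 arrays, against 44.6% of all probes. The share above background on all 8 arrays was 12.3% of Kcn probes, which is 14 probes, and 37.0% of all probes. In genes, 25 of the 80 were tested and 55 were not. Of those 55, 50 had no probe above background on any array, and Kcnd2, Kcnh1, Kcnj14, Kcnj6 and Kcns3 passed it on 1 array each. The highest value of any untested gene was 49.0 units, for Kcns3 in normal mouse 3. The number of Kcn genes above background was 21, 22 and 24 in the normal mice, 20, 21 and 20 in the dilated mice and 19 and 17 in the mice without dilatation. A gene at background here is one that these probes did not measure, and its transcript may still be present.

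The classes differed in how many members were measured. Only 4 of 32 voltage-gated pore genes were tested (Kcna10, Kcnc4, Kcnh2 and Kcns1). The tested inward rectifiers were 5 of 12 (Kcnj15, Kcnj2, Kcnj3, Kcnj4 and Kcnj8), the two-pore channels 5 of 13 (Kcnk1, Kcnk13, Kcnk3, Kcnk5 and Kcnk6), the calcium-activated channels 4 of 7 (Kcnma1, Kcnn1, Kcnn2 and Kcnn4) and the auxiliary subunits 7 of 16 (Kcnab1, Kcnab2, Kcne1, Kcne4, Kcnip3, Kcnmb1 and Kcnmb4).

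**Figure D1:**
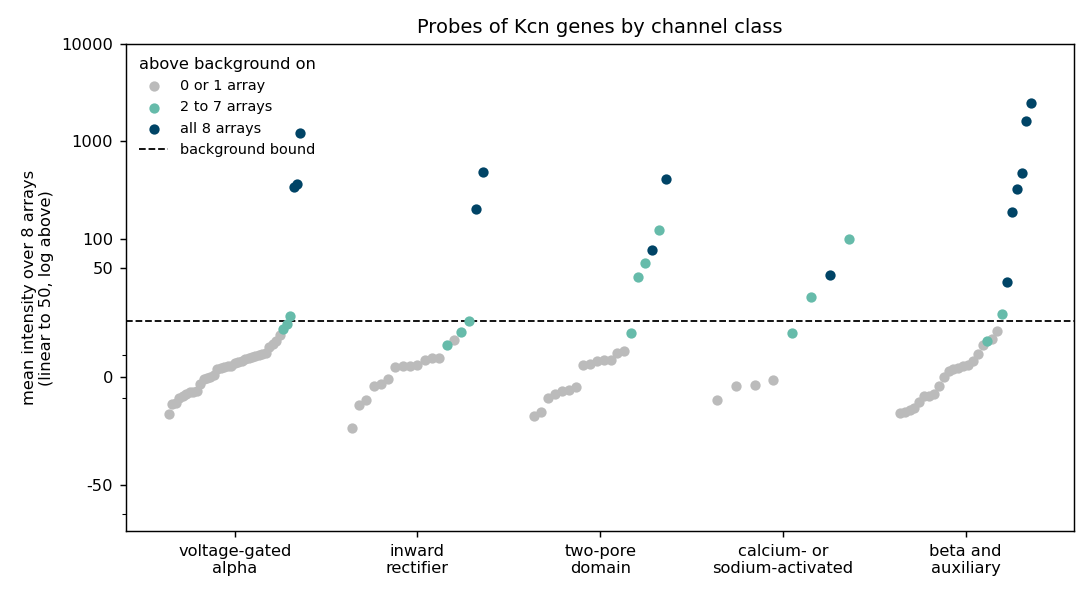
Each point is 1 of the 114 Kcn probes, at its mean intensity over the 8 arrays (vertical axis, linear up to 50 units and logarithmic above), placed by channel class and, within a class, in order of that mean. Colour gives the number of arrays on which the probe was above background (0 or 1, 2 to 7, or all 8) and the dashed line is the bound of 25.6 units: most voltage-gated probes lie below it, and 14 probes of all classes passed it on all 8 arrays.

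Several of the channels that textbooks assign to arterial smooth muscle were among those at background. Of 13 genes of that list analysed here, 7 were tested, namely Kcnma1, Kcnmb1, Kcnab1, Kcnj2, Kcnj8, Kcnk3 and Kcnk6. Kcna5, a pore of the delayed rectifier current of arteries, lay between 3.69 and 16.3 units on the 8 arrays. The highest array value was 19.5 units for Kcna2, 23.7 for Kcnq1, 22.7 for Kcnj12 and -2.48 for Kcnq5, all below the bound of 25.6. Kcns3, a silent subunit that joins other voltage-gated pores, passed the bound only on the array of normal mouse 3. Of the 5 channels listed for endothelium or macrophages, Kcnj2, Kcnk13 and Kcnn4 were tested, while Kcnn3 reached at most 4.36 units and Kcna3 at most 15.3 units.

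Differences between groups were taken from a linear model over all 8 arrays on the scale log2(intensity + 50), on which the change of a dim gene is understated. A gene was called when its Benjamini-Hochberg adjusted p from limma, over all 10040 genes tested, was under 0.05. A check of the genotype labels by Gusb held, and it does not bear on the labels of dilatation. Gusb had 1086 ± 90.2 units in normal aorta (SD, n = 3), 197 ± 17.7 in dilated (SD, n = 3) and 118 ± 9.64 in not dilated MPS VII aorta (SD, n = 2). In these samples of ascending aorta, which mix its cell types, fewer cells of a type and less RNA per cell cannot be told apart.

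In dilated MPS VII aorta against normal aorta, 8 of the 25 tested Kcn genes were called, 3 higher (Kcnab2, Kcnk13 and Kcnj2) and 5 lower (Kcnab1, Kcnk1, Kcnma1, Kcnh2 and Kcna10). The background was 20.2% of all genes tested, with 9.82% higher and 10.4% lower, and the 8 Kcn genes are 32% of 25. In not dilated MPS VII aorta, 2 Kcn genes, Kcnab1 and Kcnk1, were lower and 0 were higher, which is 8% of 25 against a background of 10% (4.84% higher and 5.17% lower). With both MPS VII groups pooled, 7 Kcn genes were called, 1 higher (Kcnab2) and 6 lower (Kcnab1, Kcnk1, Kcnma1, Kcnh2, Kcna10 and Kcnj3). That is 28% of 25, against a background of 24.4% (11.1% higher and 13.3% lower). Of 19 alternative settings, 11 lost the pooled call of Kcnh2, 8 that of Kcnab2 and 7 that of Kcnma1. Between the MPS VII groups limma called 0 Kcn genes and 0 genes in all (background 0%), although 2 Kcn genes and 910 of all genes had an unadjusted p under 0.05.

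The median difference of the 25 Kcn genes was -0.12 on the log2 scale in dilated against normal aorta, and that of all genes was -0.05. In not dilated aorta the medians were -0.22 and -0.06. Compared groups were free of overlap for 13 of the 25 Kcn genes in dilated against normal aorta (42.5% of all genes), for 12 in not dilated against normal aorta (50.7%), for 5 between the MPS VII groups (25%) and for 7 with both MPS VII groups against normal (32.1%). Of these, 8 of the 13 were lower and 5 higher in dilated aorta, and 11 of the 12 were lower and 1 higher in not dilated aorta. Between the MPS VII groups 3 of the 5 were higher in dilated aorta, and in the pooled comparison all 7 were lower. The split by direction over all genes is not given here, so a lean particular to Kcn genes cannot be read from these counts. In both comparisons above, the Kcn median lay below that of all genes tested. Among the 12 Kcn genes above background on all 8 arrays, 3 were called in the dilated comparison, 1 higher and 2 lower, beside 21% of the 7660 genes of all names that met the same condition. Kcna10 and Kcnj3 entered the test only through the normal arrays and Kcnj2 only through the dilated arrays, so these 3 genes had to differ. Without them, 6 of 22 Kcn genes were called in dilated aorta (27.3%), 2 higher and 4 lower, beside 20.2% of the 9699 genes of all names above background in more than 1 group. In not dilated aorta 2 of 22 were called (9.09%, beside 10.2%), and with both MPS VII groups pooled 5 of 22 (22.7%, beside 24.4%).

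**Figure D2:**
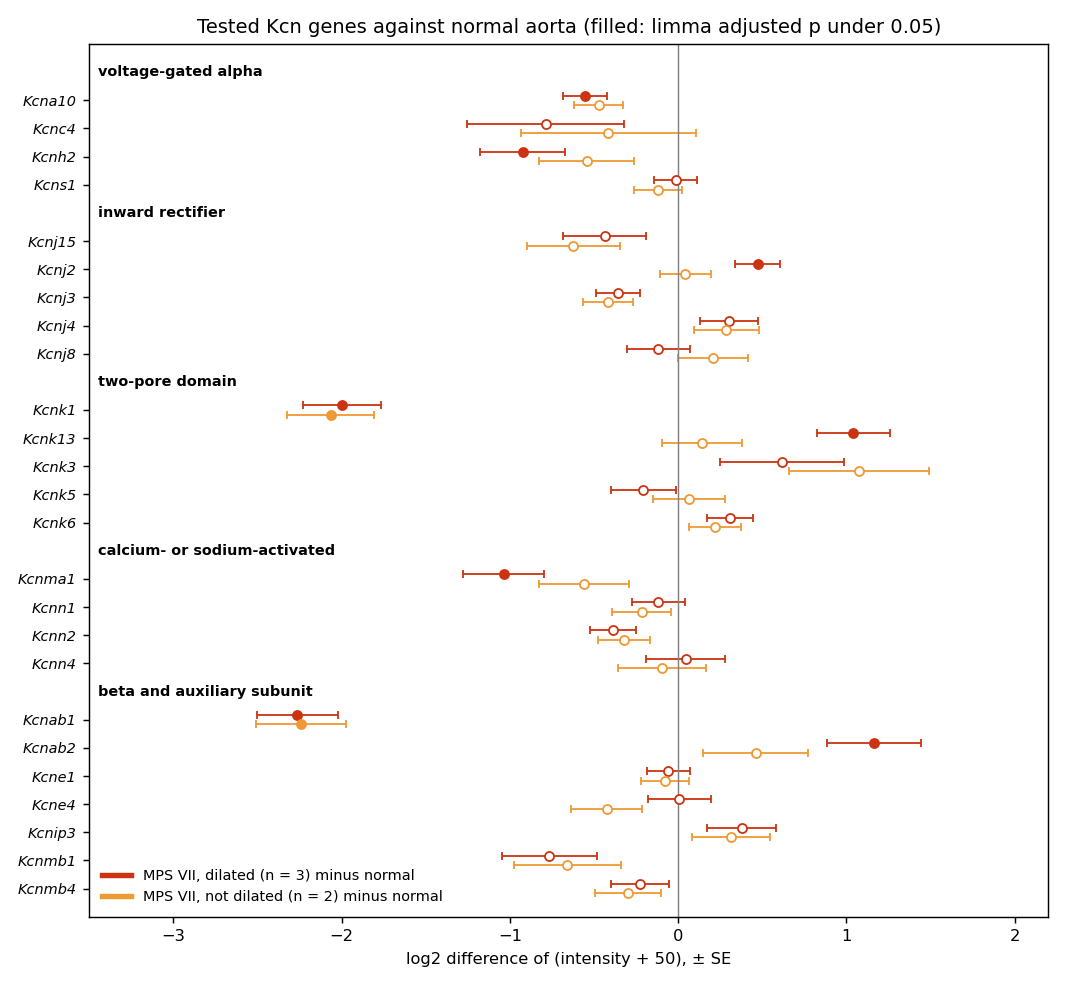
Log2 difference of (intensity + 50) from the normal group for each tested Kcn gene, by class, in dilated (red, n = 3) and not dilated (orange, n = 2) MPS VII aorta, with bars for the limma standard error and filled points for an adjusted p under 0.05. Kcnab1 and Kcnk1 lie near -2 in both comparisons, Kcnab2 and Kcnk13 lie above 1 in dilated aorta, and most of the others lie closer to 0.

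Kcnab1 carried one of the clearest differences. It encodes a cytoplasmic beta subunit that binds the Shaker-type voltage-gated pores, has the fold of an aldo-keto reductase and speeds inactivation of the current. Its intensity was 4921, 5059 and 4921 units in the 3 normal mice, 1463, 1023 and 652 in the dilated mice and 1101 and 928 in the mice without dilatation. The groups did not overlap: the highest MPS VII mouse, at 1463 units, lay far below the lowest normal mouse, and the mice without dilatation lay inside the range of the dilated mice. The log2 difference from normal was -2.26 ± 0.24 (SE) in dilated aorta (limma adjusted p = 0.000779) and -2.24 ± 0.27 in not dilated aorta (adjusted p = 0.00592). Between the MPS VII groups it was -0.02 ± 0.27 (adjusted p = 0.989).

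A second Kcnab1 probe gave the same picture. It read 2909.5, 3779 and 2682 units in normal mice, 938, 776 and 431 in dilated mice and 869.7 and 647 in those without dilatation. Its log2 difference was -2.10 in dilated (limma adjusted p = 0.00136, with every probe tested on its own) and -1.97 in not dilated aorta (adjusted p = 0.0104). The last probe stayed below the background bound on all arrays, between 11.6 and 24.9 units.

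Kcnk1, a two-pore leak channel, fell to near background in both MPS VII groups. The normal mice had 359, 167 and 309.7 units, the dilated mice 43.2, 29.6 and 17.7, and the mice without dilatation 29.0 and 22.7. All 5 MPS VII values lay below all normal values, and 3 of them stood just above the bound of 25.6. The log2 difference was -1.996 ± 0.230 in dilated (SE, limma adjusted p = 0.00102) and -2.07 ± 0.26 in not dilated aorta (adjusted p = 0.00638), and the MPS VII groups differed by 0.07 ± 0.26 (adjusted p = 0.965).

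Kcnk13, another leak channel of the two-pore class and known from microglia, differed in the opposite direction. It had 28.2, 14.4 and 30.0 units in normal mice, 76.2, 84.5 and 157 in dilated mice and 18.7 and 46.6 in those without dilatation. The 3 dilated mice were above all other mice, and the values of the other groups lay around the background bound. The log2 difference from normal was 1.04 ± 0.21 in dilated (SE, limma adjusted p = 0.0118) and 0.14 ± 0.24 in not dilated aorta (adjusted p = 0.719). The difference between the MPS VII groups, 0.90 ± 0.24, did not pass the test after adjustment (adjusted p = 0.318, unadjusted p = 0.00444), so the values do not show the gene to be raised in dilated aorta alone.

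The promoter windows of these 3 genes are shown because Kcnab1 and Kcnk1 are the members called in both MPS VII groups, and Kcnk13 is the other called gene of the two-pore class and lies on the opposite side of normal. Kcnab2 and Kcnj2, which were also called higher, are described further on without their windows. Each window is taken from RefSeq on GRCm38.p6 and covers 250 bases before and 50 after an annotated start. Kcnab1 has 3 such starts, and which of them the probes read is not given in the sources used here. Capitals mark GAGGAA (or its complement TTCCTC), the core of the binding motif of ETS factors of the PU.1 kind, and CACGTG, the palindrome to which E-box factors such as those of lysosomal genes bind.
Kcnab1 first start, chr3:64948962-64949261, plus strand: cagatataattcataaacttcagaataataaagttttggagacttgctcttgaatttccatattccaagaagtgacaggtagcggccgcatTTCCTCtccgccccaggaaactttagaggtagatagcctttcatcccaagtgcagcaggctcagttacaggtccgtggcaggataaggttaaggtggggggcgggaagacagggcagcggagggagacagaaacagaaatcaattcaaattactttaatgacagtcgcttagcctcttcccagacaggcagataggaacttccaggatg
Kcnab1 second start, chr3:65108764-65109063, plus strand: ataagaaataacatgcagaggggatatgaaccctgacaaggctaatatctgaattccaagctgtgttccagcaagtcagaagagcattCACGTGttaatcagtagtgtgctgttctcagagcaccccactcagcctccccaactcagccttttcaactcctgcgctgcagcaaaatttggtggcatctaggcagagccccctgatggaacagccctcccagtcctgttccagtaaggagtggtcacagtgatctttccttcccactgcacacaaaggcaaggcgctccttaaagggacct
Kcnab1 last start, chr3:65187853-65188152, plus strand: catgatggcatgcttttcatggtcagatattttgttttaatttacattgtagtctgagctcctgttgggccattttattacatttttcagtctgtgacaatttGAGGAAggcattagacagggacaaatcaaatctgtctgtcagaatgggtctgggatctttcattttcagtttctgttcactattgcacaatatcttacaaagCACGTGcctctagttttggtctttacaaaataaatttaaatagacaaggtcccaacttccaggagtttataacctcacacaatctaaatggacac
Kcnk1, chr8:125994852-125995151, plus strand: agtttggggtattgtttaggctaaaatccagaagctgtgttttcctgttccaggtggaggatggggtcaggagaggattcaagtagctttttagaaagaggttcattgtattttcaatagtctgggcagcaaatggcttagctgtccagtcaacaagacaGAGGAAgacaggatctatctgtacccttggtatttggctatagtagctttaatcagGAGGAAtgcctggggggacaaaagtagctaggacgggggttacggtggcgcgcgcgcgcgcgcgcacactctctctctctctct
Kcnk13, chr12:99964249-99964548, plus strand: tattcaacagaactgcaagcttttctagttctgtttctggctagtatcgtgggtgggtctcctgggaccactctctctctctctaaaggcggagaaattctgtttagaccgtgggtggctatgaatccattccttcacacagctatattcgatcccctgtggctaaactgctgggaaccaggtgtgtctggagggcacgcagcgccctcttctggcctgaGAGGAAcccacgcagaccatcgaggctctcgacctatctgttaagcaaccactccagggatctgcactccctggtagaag

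GAGGAA stood once in the window of the first start and of the last start of Kcnab1, 2 times in that of Kcnk1 and once in that of Kcnk13, so genes that fell and a gene that rose both held it. CACGTG stood once in the windows of the other starts of Kcnab1 than the first and in neither of the other genes. Promoter windows were found for 62 of the 80 Kcn genes, 84 windows in all. Searched on both strands, GAGGAA was in 24 of the 84 windows (28.6%) and in 28.3% of all 32851 windows, and CACGTG was in 7 (8.33%) and in 7.15% of all. The CArG box, the 10-letter serum response element of smooth muscle genes, was in 0 of the 84 Kcn windows and in 1.63% of all windows. These letter matches describe the windows only.

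**Figure D3:**
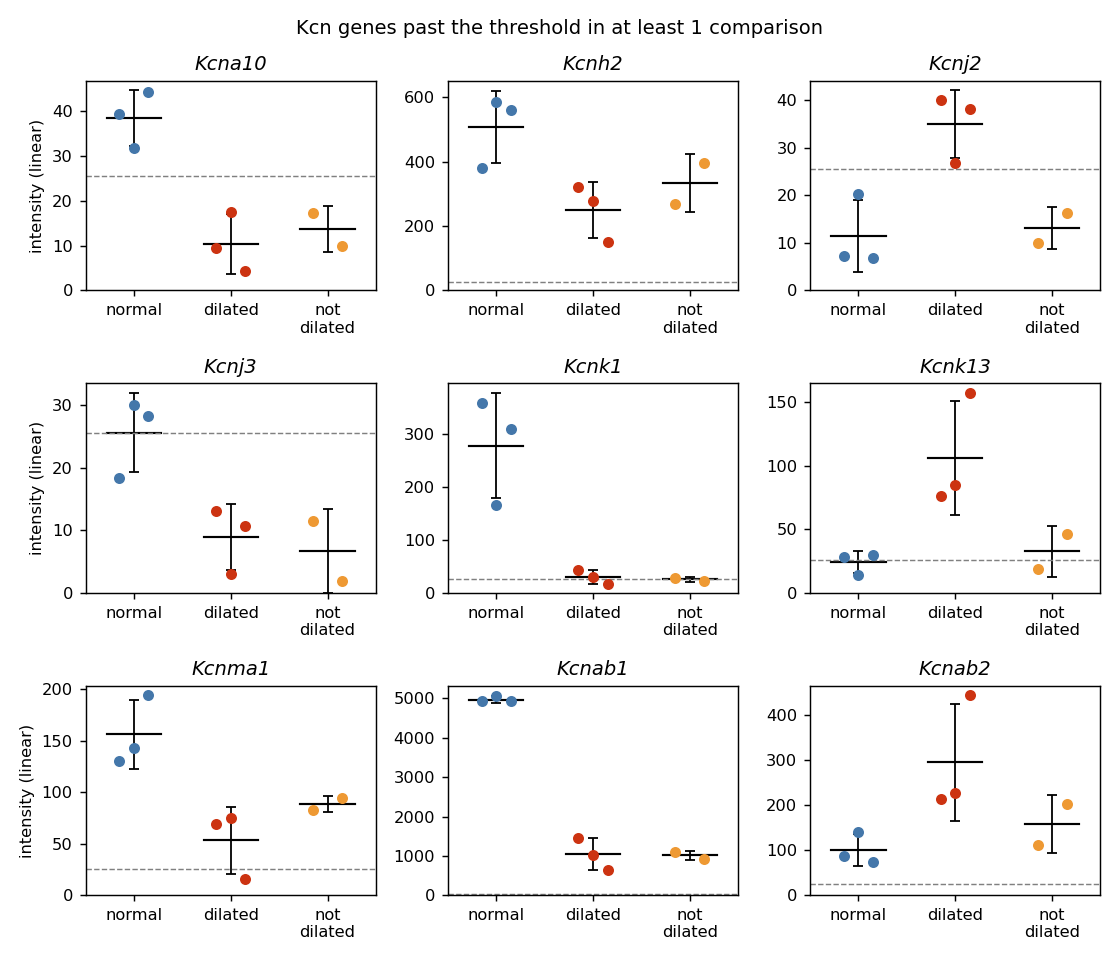
Intensity (linear scale, an axis for each gene) of the 9 Kcn genes called in at least 1 comparison, with a point for each of the 8 mice by group, a horizontal line for the group mean, bars for ± SD and a dashed line at the background bound of 25.6 units. The 3 normal mice stand above all MPS VII mice for Kcnab1, Kcnk1, Kcnma1, Kcna10 and Kcnj3. The 3 dilated mice stand above the others for Kcnk13, Kcnj2 and Kcnab2.

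Of the 4 voltage-gated pore genes tested, 2 were lower in dilated aorta, where 10.4% of all genes were lower, and 0 were called in not dilated aorta. One of them, Kcna10, was tested only through the normal arrays. Kcnh2 encodes the ether-a-go-go related channel that repolarises the heart. It had 380.2, 585 and 560.4 units in normal mice, 319.9, 276 and 152 in dilated mice and 269.6 and 396 in those without dilatation. The dilated mice lay below the normal mice, while 1 mouse without dilatation fell inside the normal range. The log2 difference was -0.92 ± 0.25 in dilated (SE, limma adjusted p = 0.0327) and -0.54 ± 0.28 in not dilated aorta (adjusted p = 0.224). A second Kcnh2 probe gave -1.10 in dilated aorta (adjusted p = 0.0235), and another never exceeded 27.9 units.

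The call for Kcnh2 in dilated aorta was lost under 7 of 19 alternative settings, among them those without normal mouse 2 (adjusted p = 0.0947), normal mouse 3 (0.104), dilated mouse 2 (0.0545) or dilated mouse 3 (0.0736). Kcna10, a Shaker-related pore, was dim, with 39.3, 31.8 and 44.2 units in normal mice, 9.40, 17.6 and 4.28 in dilated mice and 17.4 and 10.01 in those without dilatation. No MPS VII array was above background. The level was at least 1.49-fold lower in dilated than in normal aorta (adjusted p = 0.0186), a bound that sets each dim array at 25.6 units. This call too was lost without normal mouse 1 (adjusted p = 0.0611), normal mouse 3 (0.0594) or dilated mouse 3 (0.0504).

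Among the calcium-activated channels, Kcnma1 was the member that passed the test. It forms the pore of the large-conductance channel, whose current relaxes arterial muscle. Its values were 131, 143 and 194 units in normal mice, 69.3, 74.6 and 16.2 in dilated mice and 82.9 and 93.9 in those without dilatation. All MPS VII mice were below all normal mice, and dilated mouse 3 was below background. The log2 difference was -1.04 ± 0.24 (SE) in dilated aorta (limma adjusted p = 0.0177), and it was lost without normal mouse 3 (adjusted p = 0.0657). In not dilated aorta it was -0.56 ± 0.27 and did not pass (adjusted p = 0.187), though it did without dilated mouse 3 (adjusted p = 0.0458), which changes the spread only. The difference between the MPS VII groups was -0.48 ± 0.27 (adjusted p = 0.656).

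Kcnmb1, the smooth muscle beta subunit that raises the calcium sensitivity of that channel, had 570.0, 718 and 598 units in normal mice, 511, 346 and 232 in dilated mice and 263 and 536 in those without dilatation. All 5 MPS VII values lay below the 3 normal ones, but the spread among MPS VII mice was wide. In dilated aorta the log2 difference of -0.77 ± 0.28 (SE) missed the threshold (limma adjusted p = 0.0868). It passed without dilated mouse 1, at -1.02 (adjusted p = 0.0374), and with age as a covariate, at -1.04 (adjusted p = 0.0386). In not dilated aorta it was -0.66 ± 0.32 (adjusted p = 0.194). Kcnn4, the intermediate-conductance channel of endothelium and blood cells, stayed near background, with 34.7, 20.3 and 5.54 units in normal mice, 2.14, 37.6 and 29.3 in dilated mice and 5.001 and 26.2 in those without dilatation. The groups overlapped throughout, and the log2 difference was 0.04 ± 0.24 in dilated aorta (adjusted p = 0.909).

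The inward rectifiers gave 1 call among 5 tested genes in dilated aorta (20%), beside 20.2% of all genes tested. This was Kcnj2, the classical strong inward rectifier of muscle, endothelium and macrophages. It had 7.34, 20.3 and 6.77 units in normal mice, 40.1, 26.9 and 38.1 in dilated mice and 9.97 and 16.2 in those without dilatation. The arrays of dilated mice were the only ones above background. Since only they carried Kcnj2 through the filter, it had to differ. Its level was at least 1.35-fold higher in dilated than in normal aorta (limma adjusted p = 0.0367), and the same bound against not dilated aorta came with an adjusted p of 0.46 (unadjusted p = 0.0182). With values this close to 25.6 units the call was fragile, and 9 of the 19 alternative settings lost it.

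Kcnj3, a G protein-gated rectifier known from heart atrium and neurons, passed the test only with both MPS VII groups pooled (limma adjusted p = 0.0431). Its normal mice had 18.4, 30.1 and 28.2 units, its dilated mice 13.0, 2.98 and 10.7, and those without dilatation 11.4 and 1.89. No MPS VII array was above background and the normal values straddled the bound, so no size of the difference is given. Only normal arrays carried Kcnj3 through the filter, so it too had to differ. Of the 16 alternative settings in which it was tested, 10 lost the call. Kcnj8, the pore of the vascular ATP-sensitive channel, was well measured and was not called. It had 147, 207 and 253 units in normal mice, 202, 177 and 160.2 in dilated mice and 285 and 195 in those without dilatation. The groups overlapped, with a log2 difference of -0.12 ± 0.19 in dilated (SE, adjusted p = 0.676) and 0.21 ± 0.21 in not dilated aorta (adjusted p = 0.531).

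Beside Kcnk1 and Kcnk13, the two-pore class held the acid-sensitive leak channel Kcnk3, a setter of the resting potential in arterial muscle. It had 320.4, 120.1 and 382 units in normal mice, 382, 314 and 575 in dilated mice and 804 and 421 in those without dilatation. Both mice without dilatation lay above the normal mice, the dilated mice did not separate from them, and normal mouse 2 was far below the other normal mice. The log2 difference was 0.62 ± 0.37 in dilated (SE, limma adjusted p = 0.258) and 1.08 ± 0.41 in not dilated aorta (adjusted p = 0.12), and neither passed. Kcnk6, a leak channel also found in vascular muscle, had 22.3, 44.1 and 39.5 units in normal mice, 62.3, 49.6 and 53.5 in dilated mice and 42.5 and 54.9 in those without dilatation. Its dilated values lay just above the normal ones, and the difference of 0.31 ± 0.14 on the log2 scale missed the threshold (adjusted p = 0.137).

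Among the auxiliary subunits, Kcnab2, the sister beta subunit of Kcnab1, differed in the direction opposite to Kcnab1. It had 86.7, 140.0 and 73.0 units in normal mice, 214, 226 and 443 in dilated mice and 112 and 203 in those without dilatation. The dilated mice were above all other mice, and the mice without dilatation overlapped the normal ones. The log2 difference was 1.16 ± 0.28 in dilated (SE, limma adjusted p = 0.0206) and 0.46 ± 0.31 in not dilated aorta (adjusted p = 0.343). The first was lost without normal mouse 1 (adjusted p = 0.0695) or normal mouse 3 (0.0768). The difference between the MPS VII groups was 0.70 ± 0.31 (adjusted p = 0.555).

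The other 11 tested Kcn genes (Kcnc4, Kcne1, Kcne4, Kcnip3, Kcnj15, Kcnj4, Kcnk5, Kcnmb4, Kcnn1, Kcnn2 and Kcns1) were not called in any comparison. Their log2 differences in dilated aorta ran from -0.79 for Kcnc4 to 0.38 for Kcnip3 (limma adjusted p from 0.0764 to 0.983). In not dilated aorta they ran from -0.62 for Kcnj15 to 0.31 for Kcnip3 (adjusted p from 0.163 to 0.858). Kcnc4, a fast voltage-gated pore, was bright but scattered, at 1369, 2322 and 971 units in normal mice, 1504, 850.1 and 427 in dilated mice and 1598 and 728 in those without dilatation. Neighbouring genes gave no check on one another: the gene table of GRCm38.p6 places 8 pairs of array Kcn genes side by side, among them Kcnip1 with Kcnmb1 and Kcnj16 with Kcnj2, and in 0 of the 8 pairs were both genes tested.

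The genes whose level over the 8 arrays was most like that of Kcnab1, outside the Kcn names, were Adgrl1 (Pearson r = 0.996), Ccdc88a (0.992), Rab9b (0.992), Dusp8 (0.990) and Ccdc59 (0.989). Among Kcn genes, Kcnk1 stood at r = 0.96 and Kcna10 at 0.93. These r values are a description over 8 arrays that fall into a normal and an MPS VII cluster, so any gene that separates the clusters scores high.

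Genes that work beside potassium channels were counted in lists of their own. Of 13 partners outside the Kcn names, 6 were tested, and in dilated aorta 0 were higher and 2 lower, with a median log2 difference of -0.31 beside -0.05 for all genes, of which 10.4% were lower. Without Dpp10, which only normal arrays carried through the filter, 1 of 5 was lower. Sgk1, the kinase that raises the surface level of several channels, had 9723, 9817 and 11327 units in normal mice and 6197, 5461 and 3617 in dilated mice, a log2 difference of -1.04 (limma adjusted p = 0.0221). Dpp10, an auxiliary subunit of transient voltage-gated channels, had a normal mean of 32.3 units and no MPS VII array above background, and was at least 1.16-fold lower in dilated aorta, a difference that the filter fixed in direction.

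Of 28 calcium entry and store genes, 17 were tested, and in dilated aorta 1 was higher and 5 lower, with a median of -0.39, while 9.82% of all genes were higher and 10.4% lower. In not dilated aorta 0 were higher and 2 lower, beside 4.84% and 5.17% of all genes. Cacna1g, Cacnb2 and Trpm4 were above background in 1 group only, the normal group. The median of -0.39 is the value of Cacnb2 itself, so it rests on genes that the filter favoured in normal aorta. Without them 5 of 14 were called in dilated aorta (35.7%), 1 higher and 4 lower, beside 20.2% of the 9699 genes above background in more than 1 group. In not dilated aorta 1 of 14 was called (7.14%), beside 10.2%. Cacna2d1, an auxiliary subunit of voltage-gated calcium channels, had 1796, 1516 and 1820 units in normal mice, 1015, 749.9 and 498 in dilated mice and 765 and 732 in those without dilatation. It fell in both groups, by 1.18 on the log2 scale in dilated (limma adjusted p = 0.0077) and by 1.14 in not dilated aorta (adjusted p = 0.0251). Cacna1g, a low-voltage activated calcium pore, had a normal mean of 58.5 units and no MPS VII array above background. Its level was at least 2.26-fold lower than normal in each MPS VII group, and since only normal arrays carried it through the filter, it had to differ. The calcium pump of the store, Atp2a2, fell by 0.98 in dilated aorta (adjusted p = 0.0194), and Stim1, the sensor of store calcium, by 0.52 (adjusted p = 0.0137). The plasma membrane calcium pump gene Atp2b4 had a normal mean of 44.1 units and no dilated array above background, and was at least 1.72-fold lower in dilated aorta (adjusted p = 0.0274). Itpr3, a calcium release channel of the store, was the gene of the list that rose there, from 70.5, 61.5 and 102 units in normal mice to 141, 145 and 144 in dilated mice, by 0.61 on the log2 scale (adjusted p = 0.0223). Cacna1h, another low-voltage activated pore, passed the test only with both MPS VII groups pooled, at -0.51 (adjusted p = 0.0238). Trpm4, a cation channel opened by calcium, was at least 1.502-fold lower in the pooled groups, and it too was above background in normal mice only.

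Of 11 sodium pump and chloride channel genes, 8 were tested, and in dilated aorta 2 were higher and 1 lower, beside 9.82% and 10.4% of all genes. Of the 3 tested beta subunits of the sodium-potassium pump, which imports the potassium that the channels let out, 1 rose, 1 fell and 1 did not pass the test. Atp1b1 had 673, 643 and 694 units in normal mice, 2097, 3271 and 1815 in dilated mice and 2533 and 2099 in those without dilatation. It rose by 1.72 on the log2 scale in dilated (limma adjusted p = 0.0011) and by 1.71 in not dilated aorta (adjusted p = 0.0079). Atp1b2 had 493, 533 and 518 units in normal mice, 177, 174 and 88.1 in dilated mice and 214 and 215 in those without dilatation. It fell by 1.56 (adjusted p = 0.0012) and by 1.10 (adjusted p = 0.0199). Atp1b3 had log2 differences of -0.03 (adjusted p = 0.905) and 0.23 (adjusted p = 0.366). Fxyd5, a regulator of the pump, had 2058, 1722 and 2553 units in normal mice and 3155, 3560.1 and 4457 in dilated mice, and rose by 0.81 in dilated aorta (adjusted p = 0.0233).

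Marker genes of several cell types moved with the groups, and their values stand here beside the channel results. Of all genes tested, 9.82% were higher and 10.4% lower in dilated aorta, and 4.84% and 5.17% in not dilated aorta. Of 15 contractile smooth muscle markers, all tested, 11 were lower and 0 higher in dilated aorta, and 4 were lower in not dilated aorta. Their summed intensity was 150003 to 187366 units in normal mice, 71002 to 129436 in dilated mice and 97088 to 132762 in those without dilatation. Of 12 tested macrophage markers, 10 were higher in dilated and 5 in not dilated aorta, with sums of 1766 to 3028, 12535 to 17214 and 4561 to 7839 units. Cd163 went the other way and was called lower with both MPS VII groups pooled, at -0.68 on the log2 scale (limma adjusted p = 0.0288). Itgam was not above background.

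The shares of all genes given above also stand beside the counts that follow. Of 13 tested adipocyte markers, 8 were higher in dilated and 7 in not dilated aorta. Their sums were 23871 to 53333, 80087 to 109081 and 76204 to 122634 units, with Fabp4 and Retn not above background. Endothelial markers were higher for 5 of 11 in dilated and 3 of 11 in not dilated aorta, with sums of 4021 to 5583, 5787 to 11526 and 6527 to 7677 units. Of 9 fibroblast markers, 1 was higher and 4 were lower in dilated aorta, and 4 were lower in not dilated aorta, with sums of 39324 to 40313, 30078 to 37333 and 24995 to 33241 units. Of 4 skeletal muscle markers tested, 1 was higher and 1 lower in dilated aorta, while Acta1, Myh1, Ckm and Tnnt3 were not above background. Sums of the 4 tested were 6995 to 9164, 726 to 1633 and 985 to 4695 units. Their mean log2 levels were 7.71 to 7.93, 6.97 to 7.35 and 7.08 to 7.78. The sums follow the brightest gene and do not show a fall of every marker. Of 6 cardiomyocyte markers tested, 0 were called in dilated aorta and 1, Myl3, was higher in not dilated aorta, with values of 60.8 and 84.8 units there and 0.909 to 35.1 in the other mice (log2 difference 0.79, adjusted p = 0.0435). Myl4 made up most of their sum, which was 779 to 804, 743 to 1437 and 854 to 1143 units, without Tnni3, Ryr2 and Mybpc3, which were not above background. Of 9 neuron and Schwann cell markers, 3 were tested and 1 was higher in dilated aorta, with sums of 2751 to 2966, 3008 to 3129 and 2353 to 2664 units.

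The mean of the adipocyte list was 9.57 to 10.53 on the log2 scale in normal mice and 11.07 to 11.88 in MPS VII mice. As a covariate it largely repeats the genotype, so the fit cannot separate adipocyte content from genotype, whether a call is kept or lost. With that mean added to the model, Kcnk1 was the only Kcn gene still called in dilated aorta, at -2.40 (limma adjusted p = 0.0283). Kcnab1 stood at -1.88 in that fit (adjusted p = 0.0755), Kcnk13 at 0.76 (adjusted p = 0.331) and Kcnma1 at -0.52 (adjusted p = 0.511), and Kcnh2 moved to 0.02 (adjusted p = 0.979). Genes that were not called also changed sign in it: Kcnk3 stood at -0.80 in dilated and -0.50 in not dilated aorta, and Kcnmb1 at 0.26 and 0.48. Over all genes the same model called 141 in dilated aorta, in place of 2032. The part of the macrophage, smooth muscle, endothelial, fibroblast, cardiomyocyte, skeletal muscle and neuron markers in the channel differences was not tested.

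**Figure D4:**
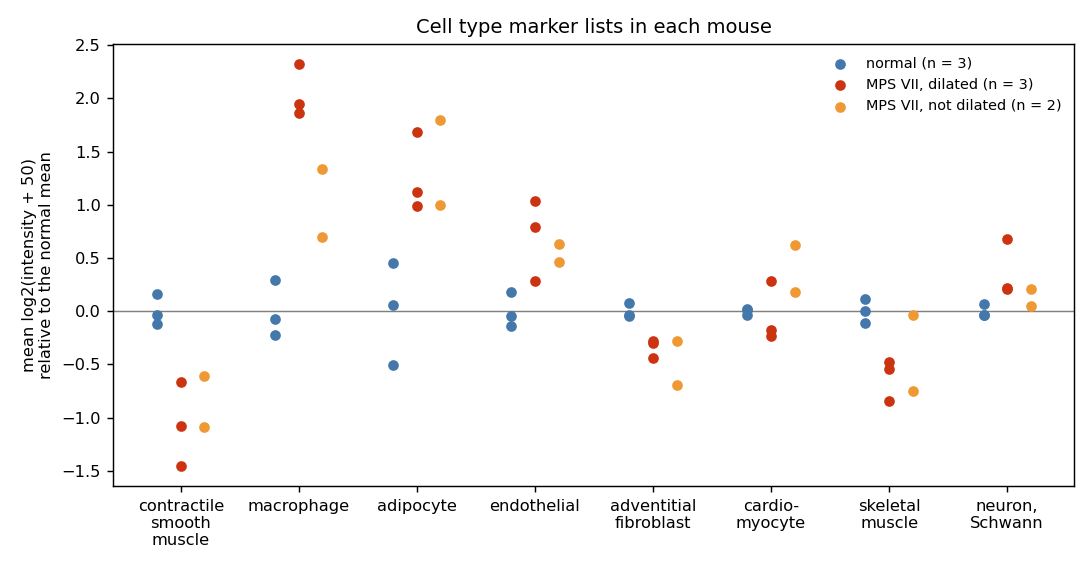
Mean log2(intensity + 50) of the tested genes of each marker list, relative to the mean of the normal mice, with a point for each of the 8 mice coloured by group. The contractile smooth muscle and adventitial fibroblast lists are lower in all MPS VII mice than in the normal mice. The adipocyte, macrophage and endothelial lists are higher in all of them.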

How the data were processed

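Each of the 8 mice had 1 array. The deposited intensity values are linear and, as 27.8% to 28.0% below 0 and near-identical sorted values (largest gap 0.94 units) show, background-subtracted and brought by the authors to a common distribution. GenomeStudio and Partek are named, without a role, in the submitters' processing notes. Their build and further steps stayed unstated (not given in the sources used here). Array medians were 17.75 to 17.99, and 45.0% to 45.2% of probes per array were above background. A table before normalization was not used, since 16 of its columns match no single sample.

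Deposited intensities were taken to log2(intensity + 50). Background was the one-sided 0.01 bound (25.6) of noise with SD 11.0, estimated from values below 0. Probes above it on at least 2 arrays were kept, and the probe with the highest mean stood for its gene, leaving 10040 genes. The platform annotation named 23141 probes with 1 symbol, 0 with several and 2556 with none, and RefSeq's table (GRCm38.p6) updated 0 of them. Group means were fitted over all 8 arrays in limma 3.58.1 (R 4.3.3, lmFit and eBayes), with 5 residual and 4.05 prior degrees of freedom, and p-values are two-sided. Exact permutation of 3 against 3 arrays cannot go below 0.1. The fit was also run on simulated data with independent normal noise, without a background floor or mixed cell types. No result here rests on that run. The number of arrays limits precision, and the labels give no slide or scan batch.

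Kcn genes, gene lists and tests were chosen with earlier results of these data known. Kcn genes named by value are those called in at least 1 of 4 comparisons, the tested members of the textbook lists, and genes with a log2 difference of at least 1 in size. Of a pathway list, at most 6 called genes were named, by smallest p with both MPS VII groups pooled. Kcnc4, Itpr3, Atp2b4, Atp1b3, Myl4 and Cd163 fall outside these rules and were added after their values were seen. Kcn symbols were the only choice of members, and levels of different probes are not set against each other. A dim group enters a fold at the higher of 25.6 and its own value. The alternatives were another offset, a floor, other filters, cyclic loess, a replicate block, age, sex, array weights, every probe, an adipocyte covariate and leaving out each array.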

Additional observations from a re-analysis of the deposited data

How the results depend on the processing

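With 19 alternatives, the number of Kcn genes called in dilated against normal aorta (8) ran from 3 to 8 when single arrays were left out, with 3 without normal mouse 3 and 5 without dilated mouse 3. In not dilated against normal aorta (2) it ran from 2 to 5, with 5 without dilated mouse 3. For both MPS VII groups (7) it ran from 2 to 9, with 2 without normal mouse 3 and 4 without normal mouse 1, normal mouse 2 or dilated mouse 2. Between the MPS VII groups it was 0 under all 19. The adipocyte covariate itself splits the normal from the MPS VII mice. It left 1, 0 and 1 Kcn genes in these 3 comparisons with normal aorta. Of all genes it left 141, 2 and 54 in place of 2032, 1005 and 2446. Under it Kcnh2 turned from lower to 0.017 in dilated aorta and to 0.26 in both MPS VII groups, and the cause was not tested. Array weights gave the highest count in dilated aorta, 12, and with age as a covariate 9 were called there. The counts of all genes called under settings other than the adipocyte covariate are not given here. Shifts in the Kcn counts under them therefore cannot be called particular to Kcn genes. Kcnab1 kept its 3 calls under 18 of 19 alternatives, and Kcnk1 kept those in dilated aorta and in both groups under all 19. With intensities floored at 16, the differences in dilated aorta were -3.23 for Kcnk1, 2.07 for Kcnk13 and -1.81 for Kcnma1 (limma adjusted p = 0.0557).

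The labels number the mice of each group. The correlation of same-numbered deviations from the group means ran from -0.193 to 0.333 over 7 pairs. The highest values, 0.333 and 0.298, joined same-numbered normal and not dilated mice. Deviations within the not dilated group of 2 mirror each other, so this check cannot decide whether the numbers pair the mice. With the replicate block the counts of Kcn genes were 7, 3, 0 and 8, and Kcnk3 became called in not dilated aorta (1.32, limma adjusted p = 0.0253).

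Values near the bound of 25.6 units limit, among others, Kcnk1, Kcnk13, Kcna10, Kcnj2, Kcnj3, Kcnk6 and Kcnn4, and the 55 untested genes cannot be compared.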
